A study of Arabidopsis thaliana with 18 samples.

Results

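A set of 10 genes of the chlorophyll pathway and its regulators were followed in wild-type Arabidopsis thaliana roots grown with or without a bisphenol. They are HEMA1 (AT1G58290), CHLH (AT5G13630), GUN4 (AT3G59400), CHLM (AT4G25080), CRD1 (AT3G56940), PORB (AT4G27440), PORC (AT1G03630) and CAO (AT1G44446), which make chlorophyll or regulate that synthesis, and GLK1 (AT2G20570) and GLK2 (AT5G44190), a pair of transcription factors. They were chosen by locus identifier for what they are known to do, and make up 10 of the 33602 loci in the expression tables. All 10 have a row in all 18 libraries.

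The study grew seedlings for 14 days on agar with BPA, BPB, BPE, BPF or BPS, or with the solvent DMSO (below 0.01% by volume) as the control, and sequenced messenger RNA from roots, 3 libraries in each of the 6 groups. The plants were all of the wild-type genotype, and no mutant or transgene was used. The 5 compounds share a pair of phenol rings and differ in the bridge between them, which is isopropylidene in BPA, sec-butylidene in BPB, ethylidene in BPE, methylene in BPF and sulfonyl in BPS. Plates of 1, 3 and 10 mg/L were made, but the dose behind each library is not labelled, so a difference between compounds may include one of dose. Nor is it stated whether replicates came from separate plates; the p-values therefore speak of the spread among these libraries, which may be technical.

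Chlorophyll is built in plastids from glutamate through a long chain of tetrapyrroles. Glutamyl-tRNA reductase makes the first committed step, and at protoporphyrin IX the chain divides: magnesium chelatase leads to chlorophyll and ferrochelatase to heme. The chlorophyll branch goes on through methylation, closure of the isocyclic ring and the light-dependent reduction of protochlorophyllide, and ends with the oxygenation that gives chlorophyll b and the attachment of the phytol tail. GLK1 and GLK2 are GARP-family transcription factors that switch on many of these genes together with those of the light-harvesting antenna. Arabidopsis roots make little chlorophyll, and GLK2 is known to promote what they make when they green in light.

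Values are FPKM, fragments per kilobase of gene after scaling for library depth, so that the levels of different genes in a library can be set side by side. Log2 changes are differences of means of log2(FPKM + 1), which understate the change of genes near or below 1 FPKM. A change is called where its adjusted p is below 0.05 among 19484 genes that averaged at least 1 FPKM over the 18 libraries. Of the 10 members, 8 passed that floor, and PORC and GLK1, at means of 0.578 and 0.201 FPKM, did not. The 8 also passed without the BPB libraries, when the lowest, GUN4, averaged 1.64 FPKM. Depth, recovered from the steps between low values, was about 15900000 to 22200000 fragments per library. In a principal component analysis of all tested genes, replicate 3 of BPA, of BPB and of BPS lay away from the other 2 libraries of its group. BPA replicate 3 scored -20.3 on the first component, against 41.7 and 24.8 for the other BPA libraries. On the third component, replicate 3 scored 59.9 in BPB and 45.2 in BPS, and the other 16 libraries lay between -35.3 and 26.6. Calls of the members that rest on these libraries are given with and without them. GUN4, CHLM, CRD1, PORB, PORC and CAO each overlap a gene on the opposite strand; the libraries were strand-specific, and whether the authors' quantification used strand is not given in the sources used here.

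Upstream sequence is shown for HEMA1, which was called with no compound when all libraries were fitted, and for 6 of the 7 members called higher with BPB, all but CHLM. The letters known greening regulators bind can thus be compared. The 250 bases before each gene start were read from RefSeq's TAIR10.1 genome and are printed 5′ to 3′ on the strand of the gene, with matches in capitals. In all, 5 motifs were searched on both strands: CCAATC and GATTCT, both linked to GLK binding, the G-box CACGTG, the evening element AAAATATCT, and GATAAG of GATA factors. HEMA1 (chr1:21626403-21626652, minus strand), CHLH (chr5:4392430-4392679, minus strand), CAO (chr1:16851272-16851521, minus strand) and GLK2 (chr5:17798012-17798261, plus strand) have no neighbouring gene in the window.
HEMA1: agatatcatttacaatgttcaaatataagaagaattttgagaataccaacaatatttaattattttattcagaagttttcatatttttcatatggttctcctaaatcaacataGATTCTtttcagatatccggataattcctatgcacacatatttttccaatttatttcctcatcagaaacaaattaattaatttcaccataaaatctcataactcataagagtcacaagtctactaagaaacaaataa
CHLH: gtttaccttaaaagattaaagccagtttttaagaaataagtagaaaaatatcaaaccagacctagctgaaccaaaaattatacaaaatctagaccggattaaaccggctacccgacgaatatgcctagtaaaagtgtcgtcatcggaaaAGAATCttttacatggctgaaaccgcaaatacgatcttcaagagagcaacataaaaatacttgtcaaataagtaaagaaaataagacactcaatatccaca
CAO: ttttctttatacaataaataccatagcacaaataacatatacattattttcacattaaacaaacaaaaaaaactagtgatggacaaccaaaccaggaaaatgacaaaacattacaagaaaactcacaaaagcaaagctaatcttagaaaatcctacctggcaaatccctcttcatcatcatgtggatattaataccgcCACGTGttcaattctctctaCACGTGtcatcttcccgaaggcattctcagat
GLK2: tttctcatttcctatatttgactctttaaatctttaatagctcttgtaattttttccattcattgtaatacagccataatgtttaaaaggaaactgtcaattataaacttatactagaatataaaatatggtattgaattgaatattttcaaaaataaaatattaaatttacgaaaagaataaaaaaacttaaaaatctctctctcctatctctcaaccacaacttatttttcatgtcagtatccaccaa
HEMA1 and CHLH each held GATTCT, read on the other strand as AGAATC in CHLH. CAO held a pair of G-boxes 52 and 32 bases before its start, and the GLK2 stretch held none of the 5 motifs. For GUN4 (chr3:21949797-21949826, minus strand), CRD1 (chr3:21076441-21076470, plus strand) and PORB (chr4:13725512-13725541, plus strand), whose windows reach into a neighbouring gene, 30 bases around a match are shown.
GUN4: acctgagccataagtgaCCAATCAGAATCg
CRD1: attaattatcgcCACGTGtctggctcccac
PORB: cctctgtggggaCCAATCttcctttgtccg
In GUN4 a CCAATC 13 bases before the start abutted a GATTCT on the other strand. CRD1 had a G-box 52 bases before its start, at the same distance as the farther of the CAO pair, and PORB a CCAATC 22 bases before its start. Over windows of 300 bases, from 250 before to 50 after each start, CCAATC was present in 4 of the 10 members and in 12.7% of 37897 windows, GATTCT in 4 and in 19.9%, CACGTG in 2 and in 6.46%, GATAAG in 3 and in 15.1%, and AAAATATCT in 1 and in 2.49%. No motif was present in all members, and a match says only that the letters are there. The windows of CHLM, which is not shown, and of GLK2 held none of the 5 motifs, though both genes rose with BPB.

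**Figure D1:**
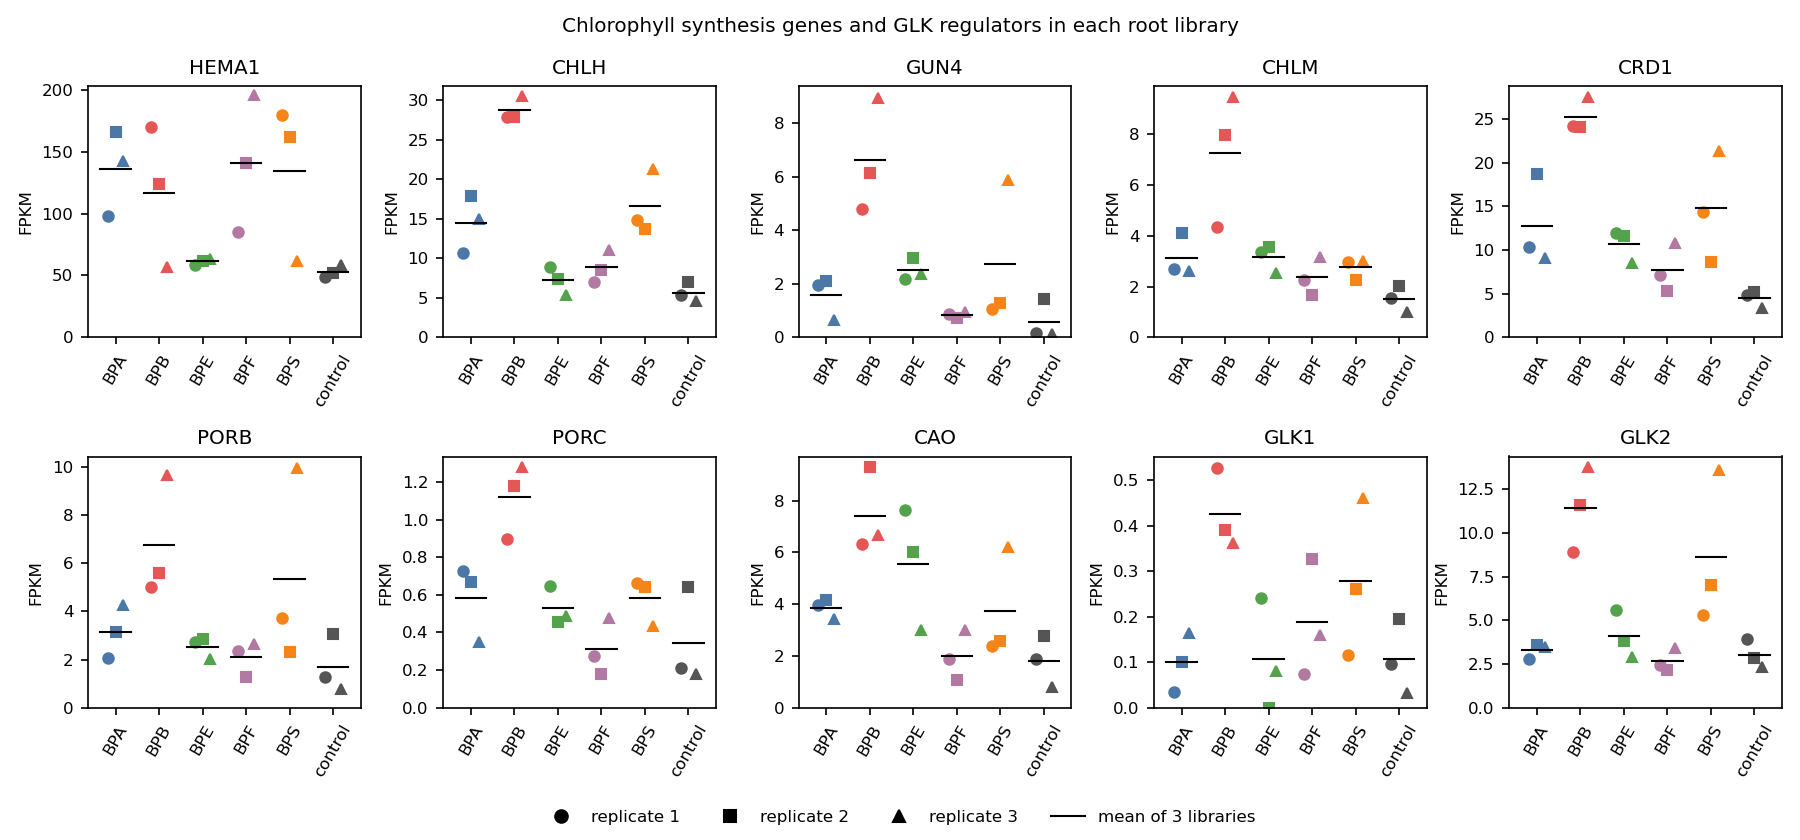
FPKM of each of the 10 members in the 18 root libraries, by group, with the 3 replicates of a group as circle, square and triangle and their mean as a line; each panel has its own linear axis from 0. In 9 of the 10 panels the highest group mean is that of BPB, and HEMA1 is the exception.

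HEMA1, the main light-regulated form of glutamyl-tRNA reductase, was the most abundant member in every group. It stood at 98.5, 166 and 143 FPKM in BPA roots, 170, 124 and 56.7 in BPB roots, 58.5, 61.9 and 63.7 in BPE roots, 85, 141 and 196 in BPF roots, 180, 162 and 61.5 in BPS roots, and 48.4, 52.4 and 58.3 in control roots. The BPA, BPE, BPF and BPS libraries all lay above the controls, while replicate 3 of BPB lay within the control range and replicate 3 of BPS just above it. No comparison was called: the log2 change was 1.31 ± 0.42 (SE) with BPA (adjusted p = 0.0573), 1.00 ± 0.42 with BPB (0.0738), 0.21 ± 0.42 with BPE (0.765), 1.31 ± 0.42 with BPF (0.122) and 1.19 ± 0.42 with BPS (0.0561). Without replicate 3 of BPA, BPB and BPS, HEMA1 was called higher with BPA (1.26, adjusted p = 0.0109), BPB (1.44, 0.00177), BPF (1.31, 0.0142) and BPS (1.67, 0.00157), and with BPE it was 0.21 (0.579). These libraries were left out after seeing the data. They include the lowest HEMA1 library of BPB and of BPS, so the larger changes there follow from that choice. None of the 5 neighbouring steps in the order of its group means, BPF, BPA, BPS, BPB, BPE and control, was called.

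HEMA2, a second glutamyl-tRNA reductase that is expressed in roots and other non-green tissues, and FC1, the ferrochelatase of non-green tissues, had the same BPB and BPS libraries high and low as HEMA1. HEMA2 stood at 110, 84.1 and 17.7 FPKM in BPB roots and 133, 81.2 and 22.2 in BPS roots, against 64.2, 66.9 and 71.4 in control roots. FC1 stood at 299, 224 and 43.1 FPKM in BPB roots and 199, 185 and 63.3 in BPS roots, against 49.9, 48.5 and 69.9 in control roots. In both compounds replicates 1 and 2 lay above the controls. Replicate 3 lay below all controls for HEMA2. For FC1 it lay below them in BPB and within their range in BPS. Neither gene was called with any compound, with adjusted p from 0.375 to 0.92 for HEMA2 and from 0.0771 to 0.812 for FC1. Without the 3 libraries that lay apart, FC1 was called higher with BPB (2.21, adjusted p = 0.000114) and BPS (1.78, 0.00096), and HEMA2 with BPA (0.90, 0.0189) and BPF (0.92, 0.0239) but not with BPB (0.51, 0.101) or BPS (0.62, 0.0793). The libraries left out held the lowest BPB and BPS values of both genes, so larger changes there follow from that choice. The summed FPKM of CHLH, GUN4, CHLM, CRD1, PORB, PORC and CAO had the other order, with 73.5, 82.1 and 94.2 in BPB roots and 40, 31.4 and 68.3 in BPS roots, against 15.3, 22.1 and 10.8 in control roots. Replicate 3 was thus the highest of its group in that sum and the lowest in HEMA1. The ratio of HEMA1 to HEMA2 was 1.48 to 3.20 in BPB roots, 1.35 to 2.78 in BPS roots, 0.874 to 1.29 in BPA roots, 0.903 to 1.26 in BPF roots and 0.680 to 0.789 in BPE roots, against 0.753 to 0.816 in control roots.

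**Figure D2:**
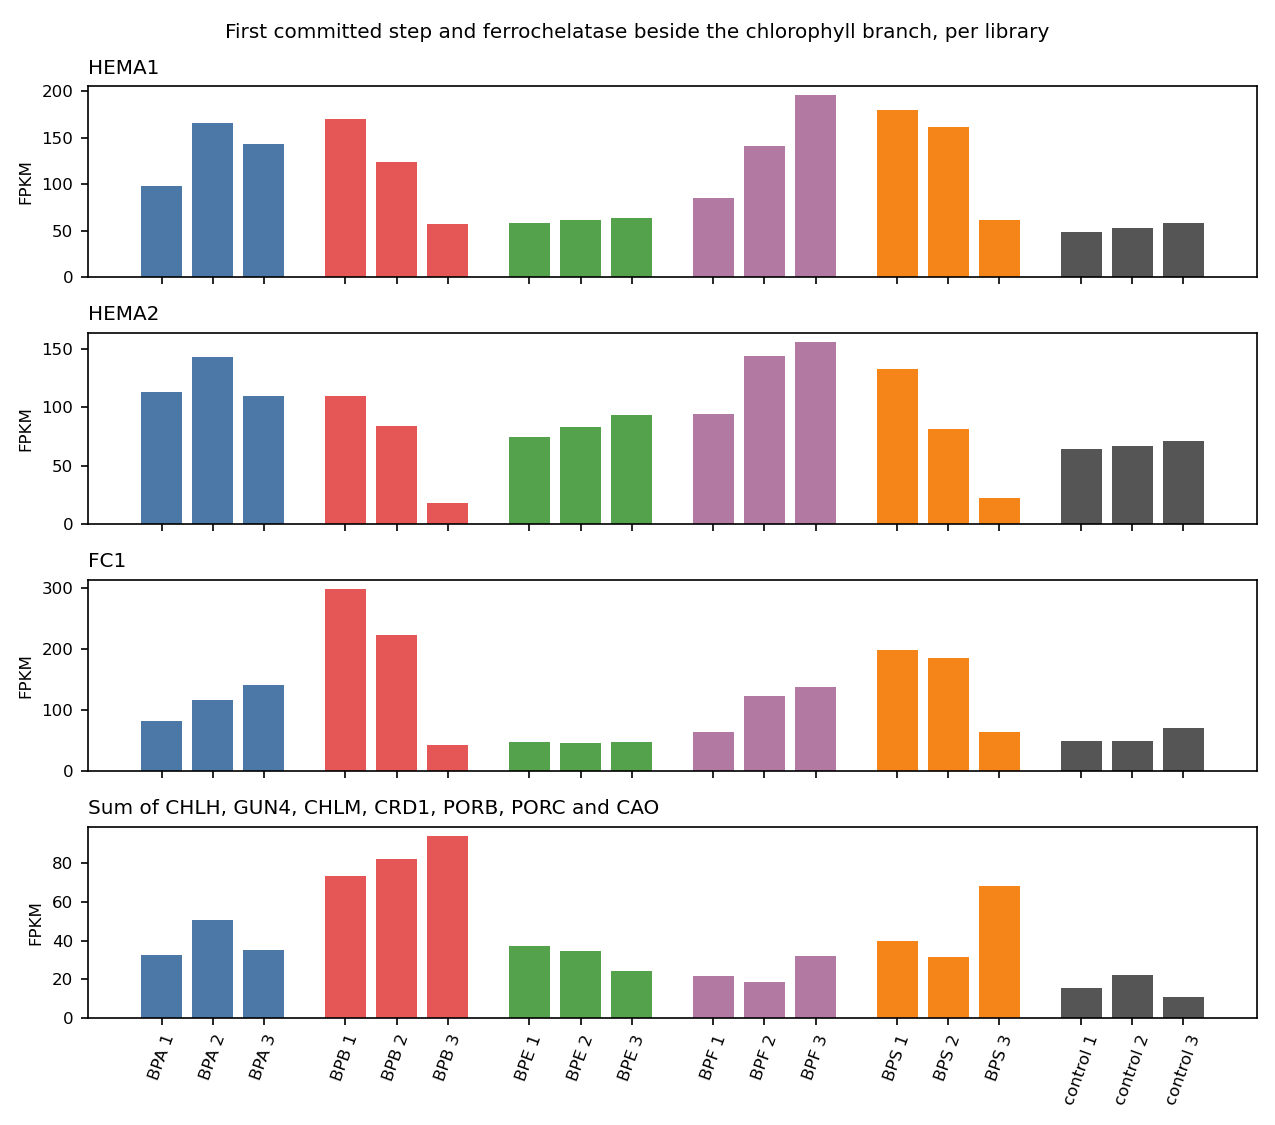
FPKM per library (bars, axes from 0) of HEMA1, HEMA2 and FC1, and of the sum of 7 chlorophyll-branch members, with replicates 1 to 3 of each compound left of the controls. Replicate 3 of BPB and of BPS has the lowest HEMA1 bar of its group, 56.7 and 61.5 FPKM, and the highest sum, 94.2 and 68.3 FPKM.

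CHLH, the large porphyrin-binding subunit of magnesium chelatase, rose with BPA, BPB and BPS. It stood at 10.6, 17.9 and 15 FPKM in BPA roots, 27.9, 27.9 and 30.5 in BPB roots, 8.86, 7.43 and 5.4 in BPE roots, 6.97, 8.52 and 11.1 in BPF roots, 14.8, 13.7 and 21.3 in BPS roots, and 5.35, 6.96 and 4.64 in control roots. The BPA, BPB, BPF and BPS libraries lay above all controls, those of BPF by as little as 6.97 against 6.96 FPKM, and those of BPE overlapped them. CHLH averaged 28.8 ± 1.53 FPKM in BPB roots and 5.65 ± 1.19 in control roots (SD, n = 3 each), a log2 change of 2.18 ± 0.22 (SE, adjusted p = 1.71e-05). The log2 change was 1.2 with BPA (adjusted p = 0.00675) and 1.39 with BPS (0.00081), against 0.30 with BPE (0.374) and 0.56 with BPF (0.201), which were not called. In the order of group means, BPB, BPS, BPA, BPF, BPE and control, the step between BPB and BPS was called (adjusted p = 0.0434) and no other.

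GUN4, which binds porphyrins and activates the chelatase, was low in control roots and rose with BPB. It stood at 1.96, 2.1 and 0.661 FPKM in BPA roots, 4.8, 6.12 and 8.94 in BPB roots, 2.19, 2.95 and 2.35 in BPE roots, 0.871, 0.737 and 0.924 in BPF roots, 1.07, 1.26 and 5.89 in BPS roots, and 0.161, 1.42 and 0.106 in control roots. Control replicate 2 was far above the other 2 controls, and the BPB and BPE libraries lay above all 3. GUN4 averaged 6.62 ± 2.11 FPKM in BPB roots and 0.562 ± 0.743 in control roots (SD, n = 3 each), a log2 change of 2.35 ± 0.41 (SE, adjusted p = 0.000531). The change with BPE, 1.26 ± 0.41, had an adjusted p of 0.0514, and that with BPS, 1.12 ± 0.41, rested on replicate 3 and had an adjusted p of 0.0624; without the 3 libraries that lay apart they were 1.26 (0.00404) and 0.57 (0.153). Without those libraries GUN4 was also called with BPA (1.05, adjusted p = 0.017). They include the lowest GUN4 library of BPA, replicate 3, so the larger change there follows from that choice.

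The remaining chelatase subunits were CHLD and the paired forms CHLI1 and CHLI2. CHLD averaged 11.6 ± 1.87 FPKM in BPA roots, 17.2 ± 3.32 in BPB roots and 10.8 ± 1.96 in BPE roots, against 6.54 ± 2.04 in control roots (SD, n = 3 each), and rose in all 3 (log2 changes 0.77, 1.29 and 0.67, adjusted p = 0.0341, 0.000373 and 0.0491). CHLI1 averaged 16.0 ± 1.27 FPKM in BPB roots and 6.89 ± 2.22 in control roots and rose with BPB (log2 change 1.14, adjusted p = 0.0018). CHLI2, a minor near copy of CHLI1 whose reads can be split with it, averaged 1.34 ± 0.252 FPKM in BPB roots and 0.399 ± 0.137 in control roots, and was below the floor.

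CHLM, the methyltransferase after the chelatase, stood at 4.33, 7.96 and 9.48 FPKM in BPB roots, against 1.56, 2.03 and 0.991 in control roots, and rose with BPB (log2 change 1.67 ± 0.25, SE, adjusted p = 0.00018). Its group means in the other compounds were 3.14 FPKM with BPA, 3.15 with BPE, 2.36 with BPF and 2.75 with BPS. Its BPA, BPE and BPS libraries lay above all controls without being called (adjusted p = 0.0744, 0.0602 and 0.108). Without the 3 libraries that lay apart, CHLM was called with BPA (0.80, adjusted p = 0.0467) and BPE (0.73, 0.0415). BPA replicate 3, left out there, was the lowest CHLM library of BPA at 2.61 FPKM, so the larger change with BPA follows from that choice.

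CRD1, the catalytic subunit of the cyclase that closes the isocyclic ring, was called with 4 of the 5 compounds. It stood at 10.4, 18.7 and 9.05 FPKM in BPA roots, 24.2, 24.1 and 27.6 in BPB roots, 12, 11.6 and 8.57 in BPE roots, 7.19, 5.27 and 10.8 in BPF roots, 14.4, 8.66 and 21.4 in BPS roots, and 4.83, 5.18 and 3.32 in control roots. All 15 libraries from roots given a compound lay above all 3 controls, the closest being BPF replicate 2. CRD1 averaged 25.3 ± 2.01 FPKM in BPB roots and 4.44 ± 0.991 in control roots (SD, n = 3 each), a log2 change of 2.29 ± 0.31 (SE, adjusted p = 9.22e-05). The log2 change was 1.29 with BPA (adjusted p = 0.0193), 1.11 with BPE (0.029) and 1.47 with BPS (0.00395), against 0.65 with BPF (0.277), which was not called. The call with BPA was lost without BPA replicate 2 (adjusted p = 0.111), and those with BPA and BPE without control replicate 1 (0.0641 and 0.0682) or control replicate 3 (0.0847 and 0.136). The call with BPE was lost also without BPE replicate 1 (0.106) or 2 (0.0994).

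PORB and PORC are protochlorophyllide oxidoreductases, the enzymes that need light. PORB stood at 2.08, 3.15 and 4.27 FPKM in BPA roots, 5, 5.59 and 9.65 in BPB roots, 2.72, 2.84 and 2.04 in BPE roots, 2.34, 1.29 and 2.66 in BPF roots, 3.71, 2.3 and 9.98 in BPS roots, and 1.27, 3.05 and 0.796 in control roots. The BPB libraries alone lay above all 3 controls, and BPS replicate 3 was the highest of the 18. PORB rose with BPB, by 1.56 ± 0.39 on the log2 scale (SE, adjusted p = 0.00662). With BPS it was 1.12 ± 0.39 (adjusted p = 0.0558), and 0.63 (0.168) without the libraries that lay apart.

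PORC stood at 0.897, 1.18 and 1.28 FPKM in BPB roots, against 0.21, 0.641 and 0.181 in control roots, and the BPB libraries again lay above the controls. Tested without the floor, PORC had a log2 change of 0.67 ± 0.13 with BPB (SE, adjusted p = 0.00227), and adjusted p from 0.253 to 1 with the other compounds. PORA, the form of etiolated seedlings, averaged 0.274 ± 0.183 FPKM in BPB roots and 0.0208 ± 0.0209 in control roots and was listed at 0 in control replicate 3. PORA and PORB are similar in sequence, so reads may have been split between them. PORB exceeded PORC in every library, by 2.86 to 22.9 times over the compound groups and by 4.40 to 6.04 times in control roots.

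CAO, chlorophyllide a oxygenase, rose with BPB and BPE. It stood at 3.97, 4.18 and 3.41 FPKM in BPA roots, 6.32, 9.28 and 6.66 in BPB roots, 7.64, 6 and 3 in BPE roots, 1.88, 1.07 and 3 in BPF roots, 2.39, 2.59 and 6.21 in BPS roots, and 1.89, 2.76 and 0.812 in control roots. Every BPA, BPB and BPE library lay above the controls, and the BPF and BPS libraries overlapped them. CAO averaged 7.42 ± 1.62 FPKM in BPB roots, 5.55 ± 2.35 in BPE roots and 1.82 ± 0.978 in control roots (SD, n = 3 each). The log2 change was 1.62 ± 0.35 with BPB (SE, adjusted p = 0.00236) and 1.21 ± 0.35 with BPE (0.035). The call with BPE was lost without BPE replicate 1 (adjusted p = 0.144) or 2 (0.114), without control replicate 1 (0.0801) or 3 (0.175), and when no floor was set (0.0527).

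GLK2 rose with BPB and BPS. It stood at 2.78, 3.58 and 3.47 FPKM in BPA roots, 8.9, 11.6 and 13.8 in BPB roots, 5.6, 3.82 and 2.92 in BPE roots, 2.47, 2.18 and 3.43 in BPF roots, 5.29, 7.02 and 13.6 in BPS roots, and 3.92, 2.86 and 2.32 in control roots. The BPB and BPS libraries lay above all controls, and the BPA, BPE and BPF libraries overlapped them. GLK2 averaged 11.4 ± 2.43 FPKM in BPB roots, 8.63 ± 4.37 in BPS roots and 3.03 ± 0.813 in control roots (SD, n = 3 each). The log2 change was 1.62 ± 0.28 with BPB (SE, adjusted p = 0.000463) and 1.18 ± 0.28 with BPS (0.00784), and without the libraries that lay apart 1.49 (0.000486) and 0.84 (0.025). With BPA, BPE and BPF it was 0.10, 0.33 and -0.12 (adjusted p = 0.851, 0.439 and 0.868). In the order of group means, BPB, BPS, BPE, BPA, control and BPF, the step between BPS and BPE was called (adjusted p = 0.0235).

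GLK1 was at the edge of detection. Its values corresponded to 14.1, 12 and 11.1 recovered fragments in BPB roots and 4, 8 and 14.1 in BPS roots, against 3, 6 and 1 in control roots, and it was listed at 0 in BPE replicate 2. In FPKM it stood at 0.526, 0.39 and 0.363 in BPB roots, against 0.0958, 0.195 and 0.0314 in control roots, and these did not overlap. Tested without the floor, its log2 change with BPB was 0.37 ± 0.11 (SE, adjusted p = 0.0192), on a scale that compresses such values. GLK1 was at most 0.15 times the level of GLK2 in any library, and 0.0264 to 0.059 times in BPB roots, against 0.0135 to 0.068 times in control roots.

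**Figure D3:**
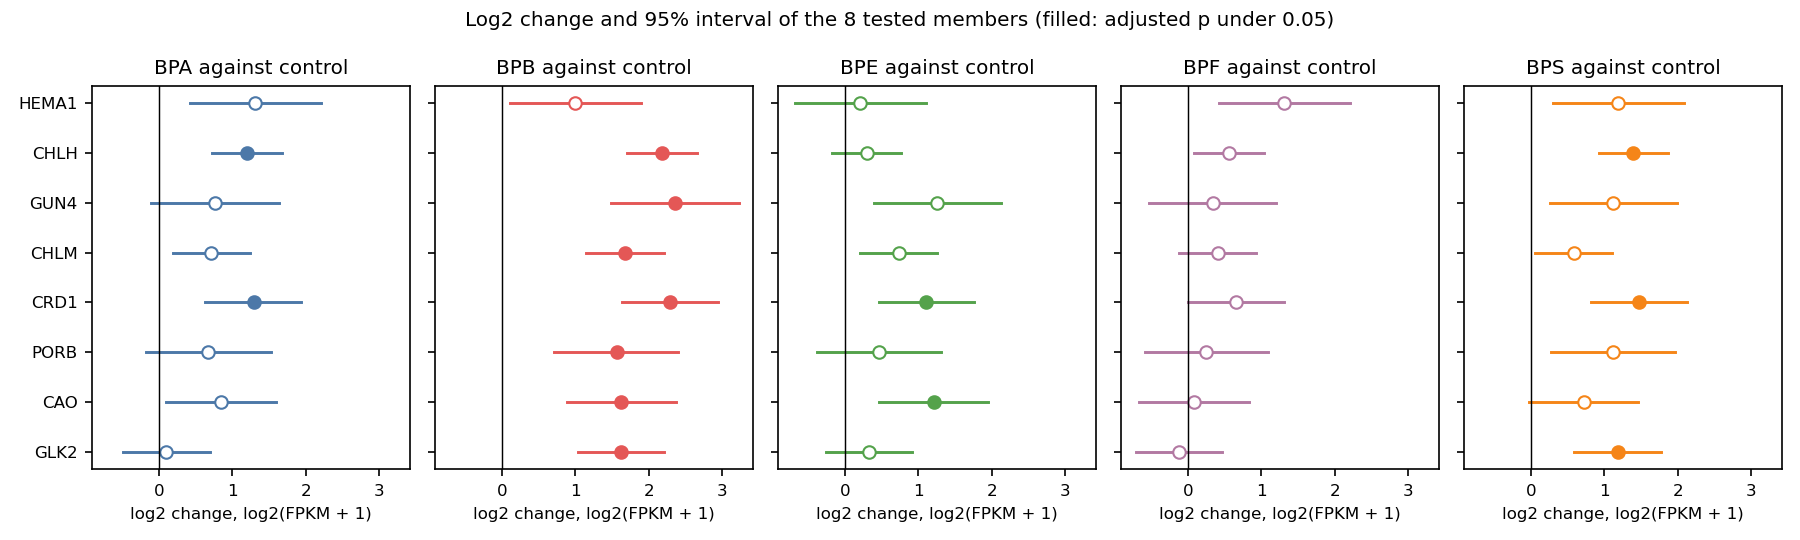
Log2 change of the 8 tested members with each compound against control (points, log2(FPKM + 1) scale) with 95% intervals, filled where the adjusted p was below 0.05. With BPB the 7 members below HEMA1 are filled, between 1.56 and 2.35; with BPF none is.

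Counted over the 8 tested members, 7, all but HEMA1, were higher with BPB, as were 25.5% of all tested genes. With BPS 3 were higher, CHLH, CRD1 and GLK2 (12.3% of tested genes), with BPA 2, CHLH and CRD1 (6.57%), and with BPE 2, CRD1 and CAO (9.08%). With BPF 0 were called (0.708% of tested genes higher), and 3 had an unadjusted p below 0.05 in the same limma fit. The share of all tested genes at an unadjusted p below 0.05 was not computed. Counts at that threshold, here and below, have no background beside them and are not read as changes. No member was called lower with any compound, when 11.1% of tested genes were lower with BPB, 8.71% with BPS, 3.83% with BPA, 5.2% with BPE and 0.677% with BPF. The median log2 change of the 8 was 1.65 with BPB (0.16 over all tested genes), 1.15 with BPS (0.09), 0.80 with BPA (0.04), 0.60 with BPE (0.04) and 0.37 with BPF (0.01). Taking all 10 members by library values alone, 9 lay wholly above the controls with BPB (34.7% of tested genes did), 5 with BPS (23.7%), 5 with BPA (21.1%), 5 with BPE (25.5%) and 3 with BPF (15%). These comparisons share the 3 control libraries. The BPA and BPE counts rested on few libraries: both calls with BPA were lost without BPA replicate 2, 1 was left without control replicate 1 or 3, and 4 were made without BPB replicate 1; both calls with BPE were lost without BPE replicate 1 or 2 or control replicate 1 or 3, and 4 were made without BPB replicate 3. The BPS count was 5 without control replicate 2 or BPB replicate 3. Without the 3 libraries that lay apart, 8 members were called with BPB (27.8% of tested genes higher in that fit), 4 with BPS (12.9%), 5 with BPA (11.9%), 4 with BPE (13.9%) and 1 with BPF (4.63%), all of them higher.

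Each compound was also set against each other one, with the later letter over the earlier, in 10 pairs and 80 tests. Adjusted within each pair over all genes, 24 of the 80 were called, and 25 when p was adjusted over all 15 comparisons together. The 4 pairs with BPB held 18 of the 24, and in each the member was higher with BPB. BPF was lower than BPB for 7 members (20.2% of tested genes), with CHLH at 8.87 ± 2.11 FPKM in BPF roots and 28.8 ± 1.53 in BPB roots, a log2 change of -1.61 (adjusted p = 0.000488), and GUN4 at 0.844 ± 0.0966 FPKM in BPF roots and 6.62 ± 2.11 in BPB roots, a change of -2.01 (0.00357). BPE was lower than BPB for 5 (19.6%), namely CHLH, CHLM, CRD1, PORB and GLK2. BPB was higher than BPA for 4 (5.53%), namely CHLH, GUN4, CHLM and GLK2. BPS was lower than BPB for 2 (6.58%), CHLH and CHLM.

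Among the 6 pairs without BPB, GLK2 accounted for 3 of the 6 calls. It averaged 8.63 ± 4.37 FPKM in BPS roots, against 3.28 ± 0.437 in BPA roots (log2 change 1.08, adjusted p = 0.0179), 4.11 ± 1.37 in BPE roots (0.85, 0.0235) and 2.69 ± 0.65 in BPF roots (1.3, 0.0227); the share of all tested genes called higher was 10.4% over BPA, 20.8% over BPE and 1.05% over BPF. The BPS and BPE libraries overlapped for GLK2, at 5.29 FPKM in BPS replicate 1 and 5.6 in BPE replicate 1. CHLH was lower with BPE than with BPA (-0.90, adjusted p = 0.045; 0.79% of tested genes lower) and higher with BPS than with BPE (1.1, 0.00172). CAO was lower with BPF than with BPE (-1.12, adjusted p = 0.043; 9.31%). None of the 8 was called between BPF and BPA (0.0667% of tested genes called in either direction), and 2 had an unadjusted p below 0.05, both lower with BPF. These were CHLH, at -0.64 with a 95% interval from -1.11 to -0.17 (adjusted p = 0.287), and CAO, at -0.75 with an interval from -1.5 to -0.01 (0.365), whose BPF libraries all lay below those of BPA. The interval reached from -0.81 to 0.37 for GLK2 and from -0.89 to 0.89 for HEMA1. GLK2 with BPS and with BPB differed by -0.44, with an interval from -1.03 to 0.15 (adjusted p = 0.302). HEMA1 was called in no pair. Without the 3 libraries that lay apart, 28 of the 80 pair tests were called. BPS was then lower than BPB for 5 members, against 2 with all libraries. BPF was lower than BPB for 7, BPE lower for 6, and BPB higher than BPA for 3. BPS replicate 3, left out there, was the highest BPS library of each tested member but HEMA1, so the BPS count depends on that choice. GLK2 was then higher with BPS than with BPA (0.77, adjusted p = 0.0452) and BPF (0.96, 0.0481) but not called against BPE (0.51, 0.109), and the CHLH call between BPE and BPA was lost (-0.87, 0.0974). HEMA1 was then called in 3 pairs, lower with BPE than with BPB (-1.23, 0.00693) and higher with BPF and BPS than with BPE (1.11, 0.00909 and 1.46, 0.00177). The libraries left out held the lowest HEMA1 values of BPB and of BPS.

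**Figure D4:**
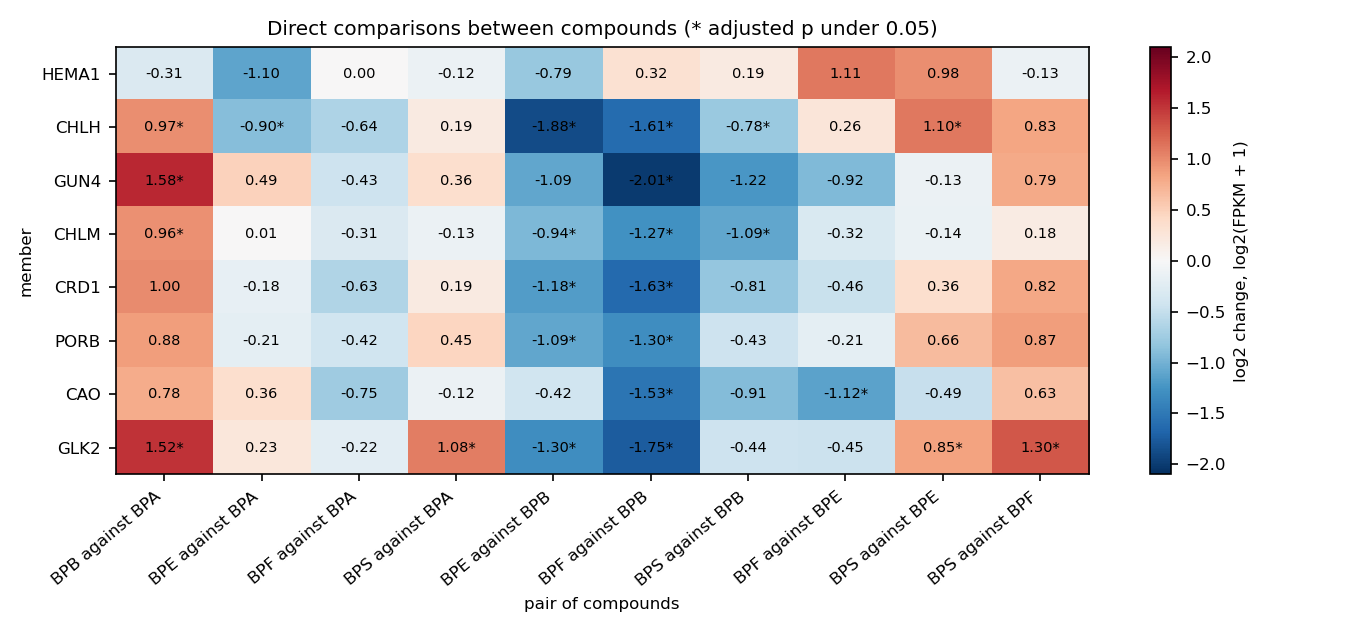
Log2 change (colour and number, log2(FPKM + 1) scale) of the 8 tested members in the 10 pairs of compounds, the compound named first over the second; stars mark an adjusted p below 0.05. Stars stand mostly in the 4 columns with BPB, 18 of 24, and in the GLK2 row for BPS.

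Other genes of chlorophyll synthesis and the steps before it, 26 of which 22 were tested, were called in part. With BPB 12 were higher and 2 lower, and with BPA 6 and with BPE 6 were higher. With BPS 2 were higher and 2 lower, and with BPF 0 were called, with 2 at an unadjusted p below 0.05. Of all tested genes, 25.5% were higher and 11.1% lower with BPB, and 12.3% and 8.71% with BPS. The share higher was 6.57% with BPA and 9.08% with BPE. The median log2 change was 0.43 with BPB, 0.25 with BPA, 0.30 with BPE, 0.12 with BPS and 0.11 with BPF. CHLP, geranylgeranyl reductase, which makes the phytol tail, averaged 66.3 ± 2.90 FPKM in BPB roots and 7.70 ± 3.01 in control roots (SD, n = 3 each, log2 change 3.01, adjusted p = 5.95e-05), and rose with BPA, BPE and BPS as well. LIL3:2, a membrane protein that holds CHLP in place, was at 42.7 ± 5.93 FPKM in BPB roots and 10.4 ± 3.74 in control roots (1.98, 0.000101). CHLG, chlorophyll synthase, was at 13.8 ± 2.39 FPKM in BPB roots and 4.2 ± 1.27 in control roots (1.52, 0.000193). The genes that fell with both BPB and BPS, named after their values were seen, were HEMD, uroporphyrinogen III synthase, with 5.22 ± 0.533 FPKM in BPB roots, 5.96 ± 0.973 in BPS roots and 12.5 ± 1.61 in control roots (-1.12 and -0.96, adjusted p = 0.000973 and 0.00548), and GSA1, an aminotransferase of 5-aminolevulinate synthesis (-0.42 and -0.38, 0.0142 and 0.0347). FLU, which represses glutamyl-tRNA reductase in the dark, averaged 10.4 ± 1.77 FPKM in BPB roots and 6.71 ± 0.163 in control roots and was not called (adjusted p = 0.0549).

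On the heme side, 5 of 7 genes were tested, and 3 were higher with BPB (25.5% of tested genes) and 2 with BPE (9.08%). HO1, heme oxygenase, rose with BPE (57.8 ± 5.08 FPKM in BPE roots, 28.7 ± 4.69 in control roots, log2 change 1.00, adjusted p = 0.00242) and with BPB (0.69, 0.00294), and HY2, phytochromobilin synthase, with the same compounds (0.49, 0.0418 with BPE; 0.79, 0.000912 with BPB). FC2, the ferrochelatase of green tissue, rose with BPB alone among the 5 comparisons (4.54 ± 0.278 FPKM in BPB roots, 3.37 ± 0.439 in control roots, 0.34, 0.0283), while FC1 was not called with all libraries in the fit. With BPA, BPF and BPS 0 of the 5 were called; at an unadjusted p below 0.05 there were 2 with BPA, 2 with BPF and 4 with BPS.

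Of 11 genes of chlorophyll turnover, 9 were tested. With BPB 4 were higher (25.5% of tested genes), with BPE 3 (9.08%), with BPA 1 (6.57%) and with BPS 1 (12.3%). With BPF 0 were higher (0.708%), and 4 had an unadjusted p below 0.05. With each compound 0 were called lower. CLH1, below the floor and named after its values were seen, stood at 0.0981, 0 and 0.0862 FPKM in BPB roots. It was at 0.377, 0.17 and 0.172 in BPS roots, against 2.21, 2.08 and 1.19 in control roots. RCCR, red chlorophyll catabolite reductase, rose with BPS (16.9 ± 3.07 FPKM in BPS roots, 5.80 ± 0.327 in control roots, log2 change 1.39, adjusted p = 0.000909), BPB (1.13, 0.00134) and BPA (0.91, 0.0223). SGRL, a stay-green-like magnesium dechelatase, and NOL, a chlorophyll b reductase, rose with BPB (0.80 and 0.90, adjusted p = 0.00128 and 0.00157). The 3 genes higher with BPE, named after their values were seen, were NYC1, PAO and CLH2, of which NYC1, the partner of NOL, stood at 20.1 ± 5.6 FPKM in BPE roots and 4.72 ± 1.57 in control roots (1.88, 0.00245). Without the 3 libraries that lay apart, 4 turnover genes were higher and 1 lower with BPB (27.8% of tested genes higher in that fit). With BPS 1 was higher and 1 lower (12.9% higher). With BPE 3 were higher (13.9%), with BPA 1 (11.9%) and with BPF 1 (4.63%). The share of tested genes lower in that fit was not computed.

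All 16 genes of the light-harvesting antenna, which binds most chlorophyll, passed the floor. With BPB 16 were higher (median log2 change 2.32), with BPS 13 (1.70), with BPE 10 (1.35) and with BPA 7 (1.11). With BPF 0 were higher (0.69), and 5 had an unadjusted p below 0.05. The share of all tested genes called higher was 25.5% with BPB, 12.3% with BPS, 9.08% with BPE, 6.57% with BPA and 0.708% with BPF. Without the 3 libraries that lay apart, 16 were higher with BPB (27.8% of tested genes in that fit), 12 with BPE (13.9%) and 10 with BPS (12.9%). With BPA it was 8 (11.9%) and with BPF 2 (4.63%). BPS thus stood above BPE only with all libraries in the fit. LHCB5 averaged 49.4 ± 7.74 FPKM in BPB roots and 5.99 ± 3.10 in control roots (SD, n = 3 each, log2 change 2.92, adjusted p = 8.82e-05), LHCB3 57.6 ± 14.7 FPKM in BPB roots and 6.75 ± 3.02 in control roots (2.96, 0.000113), and LHCA2 41.1 ± 5.50 FPKM in BPB roots and 8.08 ± 4.19 in control roots (2.30, 0.000285). Reads may have been split among the near-identical LHCB1 copies. The summed antenna was highest at 1280 FPKM in BPB replicate 3 and 1230 in BPS replicate 3, against 87.5 to 200 FPKM in control roots. GLK2 was also highest in its group in these replicates, and likewise in BPA replicate 2 and BPF replicate 3. In BPE and control roots the antenna was highest in replicate 2 and GLK2 in replicate 1. BPS replicates 1 and 2 had 635 and 305 FPKM of antenna, and 5.29 and 7.02 of GLK2, the opposite order. GLK2 was not called with BPE or BPA, where antenna genes rose.

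**Figure D5:**
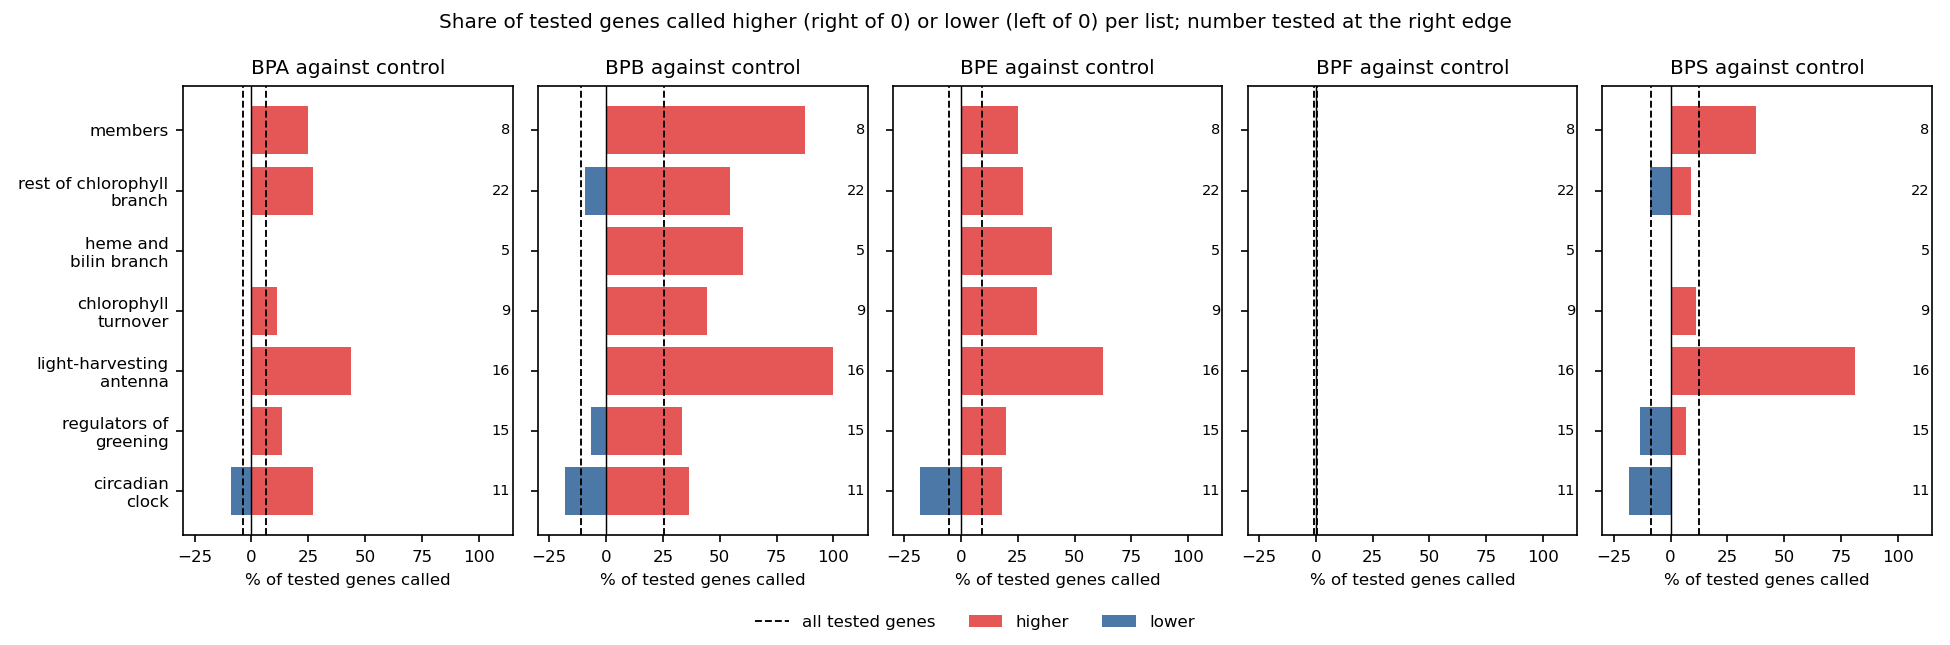
Percent of the tested genes of each list called higher (right of 0) or lower (left of 0) with each compound against control; dashed lines give the percent over all 19484 tested genes and the figures at the right edge the number tested. For the members, the bar with BPB covers 7 of 8 genes and that with BPF 0.

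Regulators of greening other than the GLK pair were called in both directions. Of 19, 15 were tested. With BPB 5 were higher and 1 lower, with BPE 3 and with BPA 2 were higher. With BPS 1 was higher and 2 lower, and with BPF 0 were called. Of all tested genes, 25.5% were higher and 11.1% lower with BPB, and 12.3% and 8.71% with BPS. The share higher was 9.08% with BPE and 6.57% with BPA. With BPF 4 were at an unadjusted p below 0.05. COP1, a ubiquitin ligase that holds back light responses, rose with BPB (23.6 ± 0.737 FPKM in BPB roots, 13.5 ± 1.61 in control roots, log2 change 0.76, adjusted p = 0.000164), BPS (0.48, 0.00717) and BPA (0.42, 0.0295). PIF5, a phytochrome-interacting factor, averaged 2.49 ± 0.327 FPKM in BPB roots, 1.81 ± 0.629 in BPE roots and 0.261 ± 0.195 in control roots, and rose with both (1.47 and 1.14, adjusted p = 0.000246 and 0.00783). SIG6, a sigma factor of the plastid RNA polymerase, rose with BPB (1.28, adjusted p = 0.000808) and BPA (0.77, 0.0482). ORE1, a NAC factor known to antagonise the GLK proteins and named after its values were seen, was at 57.2 ± 5.71 FPKM in BPE roots, 3.94 ± 2.00 in BPS roots and 10.1 ± 3.72 in control roots (2.45 and -1.17, adjusted p = 0.00218 and 0.0365). HY5, a light-response factor that works with GLK2 in root greening and was also named after its values were seen, was at 43.0 ± 5.6 FPKM in BPB roots and 40.4 ± 6.63 in control roots and was not called with any compound. Without the 3 libraries that lay apart, HY5 was called lower with BPE (-0.50, adjusted p = 0.0225). Of the list, 5 were then higher and 3 lower with BPB (27.8% of tested genes higher in that fit), and 5 higher with BPA (11.9%). With BPE 3 were higher and 2 lower (13.9% higher), with BPS 1 higher and 3 lower (12.9%), and with BPF 1 was lower. The share of tested genes lower in that fit was not computed, here or for the lists below.

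Further markers were read beside these counts. Of 16 shoot genes outside photosynthesis, 13 were below the floor and reached at most 0.666 FPKM in any library; their sum was 0.534 to 2.13 FPKM in BPB roots, highest in replicate 1, 0.259 to 0.765 in BPS roots, 0.417 to 0.869 in BPA roots, 0.295 to 0.65 in BPE roots and 0.381 to 0.575 in BPF roots, against 0.357 to 0.67 in control roots. At 0 in all 3 libraries of a group were 2 of the 13 in BPB roots and 7 in control roots. The number was 5 in BPA, 6 in BPE, 6 in BPF and 7 in BPS roots. Named after their values were seen, the stomatal gene MUTE was at 0 in all BPA, BPB, BPE, BPS and control libraries. The leaf polarity gene YAB5 was at 0 in all but 1 library, BPB replicate 1. MYB60, named likewise, stood at 0.666, 0.209 and 0.106 FPKM in BPB roots, against at most 0.0523 in control roots. The other 3, PDF1, ATML1 and CER1, which act in the outer cell layer, were tested and not called with any compound; PDF1 averaged 24.3 ± 7.49 FPKM in BPB roots and 24.7 ± 5.77 in control roots (log2 change -0.05, adjusted p = 0.913). The lowest adjusted p was 0.13 for ATML1, with BPS, and 0.112 for CER1, with BPA. CER1 was, without the libraries that lay apart, called lower with BPA (-0.81, adjusted p = 0.0102) and BPB (-0.67, 0.0107).

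Root markers were present throughout, at a summed 254 to 459 FPKM in BPB roots and 335 to 355 in control roots. Of 15 tested, 2 were higher and 3 lower with BPB, 3 higher and 2 lower with BPS, 2 lower with BPA and 2 lower with BPE. With BPF 0 were called, with 6 at an unadjusted p below 0.05. Among all tested genes, 25.5% were higher and 11.1% lower with BPB, and 12.3% and 8.71% with BPS. The share lower was 3.83% with BPA and 5.2% with BPE. WOX5, of the quiescent centre, averaged 1.70 ± 0.665 FPKM in BPB roots, 2.31 ± 0.567 in BPS roots and 11.7 ± 2.74 in control roots (-2.24 and -1.93, adjusted p = 0.000698 and 0.00414), and GL2, of non-hair epidermis, 3.46 ± 1.17 FPKM in BPB roots, 4.53 ± 0.552 in BPS roots and 1.05 ± 0.104 in control roots (1.08 and 1.43, 0.00237 and 0.00096). EXPA7, of root hairs, fell with BPB (-1.47, adjusted p = 0.00769) and BPE (-1.31, 0.0357). When the libraries that lay apart were left out, 1 root marker was higher and 5 were lower with BPB, 5 were lower with BPE, 3 lower with BPA, 4 higher and 2 lower with BPS, and 2 higher and 2 lower with BPF. Their part in the member changes was not tested, and in whole roots more cells of a type and more RNA per cell cannot be told apart.

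Genes of the circadian clock, which gates chlorophyll genes by time of day, were called in both directions. Of 11 genes, 4 were higher and 2 lower with BPB, 3 higher and 1 lower with BPA, and 2 higher and 2 lower with BPE. With BPS 2 were lower, and with BPF 0 were called, with 5 at an unadjusted p below 0.05. Of all tested genes, 25.5% were higher and 11.1% lower with BPB, 6.57% and 3.83% with BPA, and 9.08% and 5.2% with BPE. With BPS 12.3% were higher and 8.71% lower. The morning gene LHY rose with BPB (46.4 ± 6.62 FPKM in BPB roots, 15 ± 2.27 in control roots, log2 change 1.56, adjusted p = 6.33e-05) and BPA (1.09, 0.00643). RVE8 did the same (55.5 ± 13.2 FPKM in BPB roots, 16.5 ± 3.99 in control roots, 1.69, 0.000186; 1.23, 0.0102 with BPA), as did CCA1 (106 ± 20.6 FPKM in BPB roots, 37.6 ± 9.25 in control roots, 1.48, 0.000529; 0.88, 0.0416 with BPA). LUX, of the evening complex and named after its values were seen, fell with BPB, BPA, BPE and BPS, to between 5.10 and 5.62 FPKM on average, against 10.9 ± 0.872 in control roots. Leaving out the libraries that lay apart, 5 clock genes were higher and 4 lower with BPB, 4 higher and 3 lower with BPA, and 1 lower with BPF. With BPS, LHY, RVE8 and CCA1 were not called (0.36, 0.26 and -0.27, adjusted p = 0.219, 0.514 and 0.502), and the 2 clock genes that were called were lower. The labels give no time of harvest for any group, and the part of the clock in the member changes was not tested.

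Genes whose profiles over the 18 libraries came nearest to the members were ranked by the root mean square difference of centred log2(FPKM + 1) values. For GLK2 they were AT1G79030, AT1G72200 and AT3G61750, at differences of 0.262, 0.273 and 0.28, beside a spread of 0.72 of GLK2 itself; AT1G72200 averaged 20.3 ± 6.39 FPKM in BPB roots, 13.4 ± 5.27 in BPS roots and 4.2 ± 0.38 in control roots. For the mean profile of the 7 tested members other than GLK2 they were PDE334, AT3G01690, CYP705A19, AT3G26770 and TBL36, at 0.128 to 0.177 beside a spread of 0.60. PDE334, named for a pigment-defective mutant, averaged 43.0 ± 2.57 FPKM in BPB roots and 13.5 ± 3.85 in control roots. The libraries share their treatments, so likeness of profile is a description.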

How the data were processed

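Messenger RNA of 18 root libraries was read from tables that, per the file headers, give FPKM per gene as made by the authors. The build is TAIR10 and the tools named are edgeR, StringTie 1.3.0 and HISAT2 2.0.4, per the submitters' processing notes; which tool made which value, the annotation release and filters are not given in the sources used here. Per the labels, libraries were strand-specific.

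Groups were taken from the sample labels. FPKM values were tested as log2(FPKM + 1) in R 4.3.3 by limma 3.58.1. The fit had an intensity trend, 1 coefficient per group and no batch term, and covered 19484 genes whose mean reached 1 FPKM. All 15 comparisons between the 6 groups were made, and p-values were adjusted by Benjamini and Hochberg within each. SD is over 3 libraries and SE is of the log2 change. Fragment totals were recovered from value steps: 56.0% to 62.9% of values below 2 FPKM that stood for up to 5 fragments were within 0.02 of a whole number, when 4.0% would be if values were even. The median 95% half-width of a log2 change was 0.40. The fit was tested on simulated data.

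The members, gene lists and tests were chosen with earlier results of these data known. All members are named, and of each list up to 3 genes with the smallest adjusted p in any comparison with control, plus PORA, CHLI1, CHLI2, CHLD, HEMA2, FC1, FC2 and FLU; others are marked as named after their values were seen. Profile likeness was not computed for GLK1, which was not tested. Upstream windows were read from the TAIR10.1 genome of RefSeq, and no coordinates of the authors' files were used. Alternatives were quantile normalization, median scaling, no intensity trend, no floor, log2(FPKM + 0.1), a replicate block, only the 6 libraries compared, adjustment over all comparisons, and leaving out each library; leaving out replicate 3 of BPA, BPB and BPS together was chosen after seeing the data.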

Additional observations from a re-analysis of the deposited data

How the results depend on the processing

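Of 320 member results recomputed under the other normalizations, floors, offsets and fits, 307 kept their direction and side of the threshold, 11 became called, 1 was lost and 1 changed sign (CAO with BPF, -0.01 under quantile normalization). The count of members called was 1 with BPE when no floor was set; 4 with BPE and 5 with BPS on log2(FPKM + 0.1); 4 with BPE when only the 6 libraries compared were fitted; and 1 with BPF (HEMA1, adjusted p = 0.0445) when p was adjusted over all 15 comparisons. Without replicate 3 of BPA, BPB and BPS, it was 5 with BPA, 4 with BPE and 1 with BPF, when the share of all tested genes called higher was 11.9% with BPA, 13.9% with BPE and 4.63% with BPF, against 6.57%, 9.08% and 0.708% with all libraries; over the pairs of compounds it was 28. No BPE, BPF or control library was left out there. The log2 change was the same in both fits for GUN4 with BPE, at 1.26, and for HEMA1 with BPF, at 1.31. The fit pools the spread of each gene over all groups, so leaving out libraries of some groups also moves the adjusted p of others. Why those libraries lay apart was not tested. Leaving out each library in turn, the count was 0 to 4 with BPA, 7 to 8 with BPB, 0 to 4 with BPE, 0 to 0 with BPF, 3 to 5 with BPS and 16 to 30 over the 10 pairs of compounds. The log2 change then ran from -0.26 to 0.03 for GLK2 with BPF, from -0.20 to 0.33 for CAO with BPF and from -0.03 to 0.25 for GLK2 with BPA, none of them called. Replicate numbers were not treated as pairs. For each number, 5 of 15 pairs of groups had deviations from the group mean that correlated above 0.1. The correlations ran from -0.36 to 0.58 for replicate 1, from -0.57 to 0.40 for replicate 2 and from -0.44 to 0.65 for replicate 3. Whether some libraries of the same number share a batch was not tested. A replicate block changed no member call against control and gave 22 calls over the pairs of compounds, against 24. Depth limits GLK1, PORC and the GUN4 controls, where few fragments stand behind a value.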
